A study of Mus musculus with 32 samples.

Results

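Interleukin-6 (IL-6), IL-10, IL-27, leukemia inhibitory factor (LIF) and oncostatin M (OSM) were followed at the RNA level together with their receptor chains in mouse macrophages. The 10 genes were Il6, Il6ra, Il6st, Il10, Il10ra, Il10rb, Il27, Ebi3, Lif and Osm, chosen by the gene name printed for each probe on the array, out of 24082 gene symbols with a probe. Each of the 10 genes had 1 probe. Of these, 9 were above background often enough to be tested among 16036 genes, and Lif was not.

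The cells were BMDMs, that is, bone marrow progenitors grown into macrophages with the growth factor M-CSF. They came from WT C57BL/6 mice (C57BL6/J in the study's methods) or from Ifnar1-/- mice, in which every cell lacks the IFNAR1 chain needed to respond to type I interferon. Each genotype was left untreated or was exposed for 6 h to zVAD alone, to LPS alone or with zVAD, to IFNβ alone or with zVAD, or to either of the last combinations together with Nec-1. LPS activates the receptor TLR4, zVAD blocks caspases, and Nec-1 blocks the kinase RipK1, so that LPS+zVAD and IFNβ+zVAD are necroptosis stimuli and Nec-1 is their inhibitor. Doses in the labels are 100 ng/mL for LPS and 1000 U/mL for IFNβ, and the study's methods and legends differ from them. The 16 groups held 2 arrays each, and the labels do not say that the arrays came from separate mice or cultures, so p-values measure the spread between these arrays, which may be technical. In RNA from whole cultures, fewer cells that make a transcript and less transcript per cell cannot be told apart.

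IL-6 binds its receptor chain IL-6Rα (Il6ra) and then gp130 (Il6st), the signalling chain that LIF, OSM and IL-27 also use, and gp130 activates the transcription factor STAT3. IL-27 is a dimer of p28 (Il27) and EBI3 (Ebi3). IL-10 binds IL-10Rα (Il10ra) together with IL-10Rβ (Il10rb), also acts through STAT3, and restrains cytokine production by macrophages.

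RefSeq promoter windows of the GRCm38.p6 assembly were at hand for 5 of the 10 genes, namely Il6, Il6ra, Il6st, Ebi3 and Lif. The 250 bases before the start are shown for Il6 and Ebi3, which LPS raised, and for Il6ra, which LPS lowered. They lie at chr5:30012864-30013113 on the plus strand, chr17:55952373-55952622 on the plus strand and chr3:89913197-89913446 on the minus strand. Capitals mark matches to any of 7 motifs searched on both strands, and no match overlapped another.
Il6: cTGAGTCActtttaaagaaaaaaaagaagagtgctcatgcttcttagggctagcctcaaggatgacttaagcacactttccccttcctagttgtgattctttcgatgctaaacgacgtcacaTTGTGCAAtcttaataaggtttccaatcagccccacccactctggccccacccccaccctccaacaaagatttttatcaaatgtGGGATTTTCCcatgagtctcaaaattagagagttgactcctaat
Ebi3: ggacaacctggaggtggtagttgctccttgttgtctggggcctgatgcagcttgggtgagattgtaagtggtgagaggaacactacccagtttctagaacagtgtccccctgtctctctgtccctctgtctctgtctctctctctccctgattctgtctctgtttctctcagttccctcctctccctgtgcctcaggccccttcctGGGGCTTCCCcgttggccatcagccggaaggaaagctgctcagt
Il6ra: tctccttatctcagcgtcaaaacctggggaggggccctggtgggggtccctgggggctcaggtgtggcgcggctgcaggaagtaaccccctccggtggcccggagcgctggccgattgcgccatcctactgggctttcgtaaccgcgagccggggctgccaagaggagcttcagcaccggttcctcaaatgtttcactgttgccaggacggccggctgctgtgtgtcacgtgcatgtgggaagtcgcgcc
The Il6 window held an AP-1 motif (TGANTCA, found in 6.75% of 32851 windows of the same length), a C/EBP motif (TTGCNNAA, 9.56%) and the NF-κB consensus (7.25%). The Ebi3 window held the NF-κB consensus alone, and in both genes that match began 44 bases before the start. The Il6ra window held none of these, nor TATAAA (12.4%), the STAT motif TTCNNNGAA (7.02%), the interferon-stimulated response element (2.98%) or TGACGTCA (1.55%). The windows of Lif and Il6st are not shown. That of Lif held an AP-1 motif and the NF-κB consensus, and that of Il6st, which LPS lowered, held none of the 7 motifs. Lif was too dim for the main test. With LPS in WT cells it differed by 0.15 log2 (adjusted p = 0.95, limma without the filter on dim probes). Whether motifs go with the LPS response was not tested. A match describes letters in the window and is not a measured binding site.

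Between 54.9% and 78.1% of the probes were well above background on the WT arrays and 44.5% to 61.6% on the Ifnar1-/- arrays. The arrays lay on 4 slides, each holding the 8 treatments of 1 genotype with 1 replicate number, so genotype and slide cannot be told apart. Each treatment had its control on the same slide, but the tests did not pair arrays by slide unless a block is named. Of the macrophage markers, 7 of the 8 listed had a probe, and all 7 were above background on all 32 arrays. Of 15 markers of other cells, 7 were above background on all arrays. These were the T cell markers Cd3e and Cd4, the B cell marker Cd79a, the neutrophil markers Elane and Mpo, and the mesenchymal markers Col1a1 and Col1a2. Elane (median 12.59 log2) and Cd4 (12.09) were as bright as the macrophage marker Fcgr1 (12.07). The NK cell marker Ncr1 and the erythroid marker Hbb-b1 were above background on 2 and 1 arrays. Whether other cells were present was not tested. Ifnar1 RNA was still above background in the Ifnar1-/- arrays, the brightest of its 3 probes overlapped between genotypes (9.02 to 14.76 log2 in WT, 11.16 to 12.44 in Ifnar1-/-), and the other 2 probes separated the genotypes without overlap (9.94 to 11.88 log2 against 7.29 to 8.73, and 7.88 to 10.23 log2 against 5.82 to 7.35). Whether these probes lie inside the deleted part of the gene was not tested. The Ifnar1-/- LPS+zVAD+Nec-1 replicate 2 array stood apart from the other array of its group, with a correlation over genes of 0.947 where the other 15 groups reached 0.973 to 0.991. It resembled Ifnar1-/- IFNβ+zVAD+Nec-1 replicate 2 most (0.993), its Il6 signal was not well above background, and Tnf, an LPS-responsive cytokine gene, read 9.99 log2 in it and 15.92 log2 in replicate 1. It enters the shared estimate of the spread in every test, so values without it are given wherever it changed a call.

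All levels below are log2 intensities after quantile normalization, and differences are on the same log2 scale. A gene is called changed at a Benjamini-Hochberg adjusted p under 0.05 over the 16036 genes, from limma with the spread pooled over the 16 groups.

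The 2 cytokine genes with the widest range were Il6, from 2.42 to 17.46 log2 over the 32 arrays, and Il10, from 5.61 to 13.82 log2. The range was 5.29 log2 for Osm, 4.02 for Il6ra, 3.92 for Ebi3, 3.82 for Il27, 2.79 for Il10ra, 2.63 for Il6st and 1.41 for Il10rb. Within groups the median SD (n = 2) lay between 0.11 log2 for Il10rb and 0.38 log2 for Il27. A range over 32 arrays is wider than a median SD of 2 arrays even without any treatment effect, so the 2 measures side by side do not show a change. The receptor chain Il10rb had the smallest range.

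**Figure D1:**
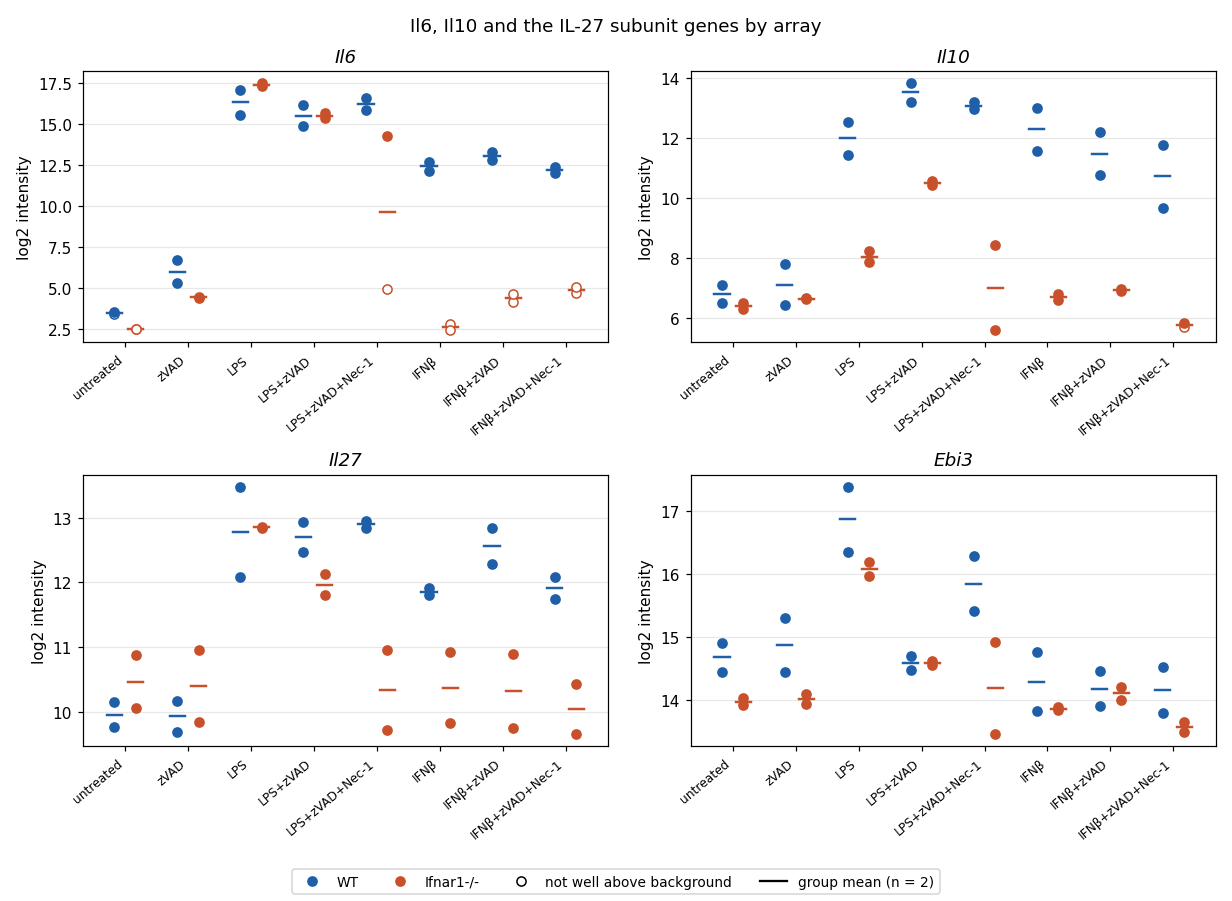
Log2 intensity of Il6, Il10, Il27 and Ebi3 (vertical axes) on each array of the 8 treatments (horizontal axes), WT in blue and Ifnar1-/- in orange, with bars at the mean of the 2 arrays and open circles where the probe was not well above background. IFNβ-containing groups are high for Il6 and Il10 in WT alone, and 1 Ifnar1-/- LPS+zVAD+Nec-1 array reads 4.94 log2 for Il6.

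Il6 was measured by a probe at chr5:30346367-30346426 (mm9, plus strand), spotted 2 times per array. In WT BMDMs its level was 3.38 and 3.54 log2 in the untreated arrays, of which 1 was above background. It was 17.06 and 15.55 with LPS, 12.66 and 12.13 with IFNβ, and 5.28 and 6.67 with zVAD. It was 16.12 and 14.86 with LPS+zVAD, and 16.54 and 15.83 with LPS+zVAD+Nec-1. Every LPS array exceeded every IFNβ array, and both zVAD arrays lay between these and the untreated cells. With IFNβ+zVAD the level was 12.76 and 13.26 log2, and with IFNβ+zVAD+Nec-1 it was 12.33 and 11.96.

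In Ifnar1-/- BMDMs Il6 read 2.5 and 2.46 log2 in untreated cells and 2.81 and 2.42 with IFNβ, none of them above background. With LPS it reached 17.28 and 17.46 log2, the highest levels of any group, and with LPS+zVAD 15.34 and 15.64. With zVAD it read 4.45 and 4.37 log2, above background on 1 array. IFNβ+zVAD (4.1 and 4.58) and IFNβ+zVAD+Nec-1 (4.68 and 5.06) were not well above background on any array. LPS+zVAD+Nec-1 gave 14.26 and 4.94 log2 on its 2 arrays. In the order of the 16 groups, Ifnar1-/- LPS stood first and did not overlap WT LPS, the next group. The difference between these 2 groups, 1.06 log2 (SE 1.6, adjusted p = 0.687, limma), was not called. Without the array that stood apart it was not called either (SE 0.48, adjusted p = 0.102). WT LPS, WT LPS+zVAD+Nec-1 and the 2 LPS+zVAD groups overlapped their neighbours.

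Il10 was measured at chr1:132920943-132921002 (mm9, plus strand) by a probe spotted 10 times per array, whose spots differed by a median SD of 0.12 log2 within an array, and was above background on 31 of 32 arrays. In WT cells it read 6.49 and 7.1 log2 untreated, 12.54 and 11.43 with LPS, 13.01 and 11.58 with IFNβ, and 6.44 and 7.8 with zVAD. LPS+zVAD gave 13.21 and 13.82 log2, and LPS+zVAD+Nec-1 gave 13.19 and 12.96. IFNβ+zVAD gave 12.18 and 10.78 log2, and IFNβ+zVAD+Nec-1 gave 11.77 and 9.68. The WT arrays with LPS or IFNβ all lay above the WT arrays without them.

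Without IFNAR1, Il10 read 6.3 and 6.5 log2 in untreated cells, 7.86 and 8.24 with LPS, and 10.44 and 10.55 with LPS+zVAD. It read 6.62 and 6.82 log2 with IFNβ, 6.66 and 6.63 with zVAD, 6.98 and 6.9 with IFNβ+zVAD, and 5.71 and 5.83 with IFNβ+zVAD+Nec-1. LPS+zVAD+Nec-1 gave 8.42 and 5.61 log2. Among the Ifnar1-/- groups LPS+zVAD was the highest, and its arrays overlapped the WT IFNβ+zVAD+Nec-1 arrays, the group next above it.

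Il27, the p28 subunit gene (chr7:133736137-133736196, mm9, minus strand), read 10.15 and 9.76 log2 in untreated WT cells, 13.48 and 12.08 with LPS, 11.92 and 11.8 with IFNβ, and 12.28 and 12.85 with IFNβ+zVAD. The Ifnar1-/- levels were 10.88 and 10.05 log2 untreated, 12.86 and 12.85 with LPS, 12.13 and 11.8 with LPS+zVAD, and 10.92 and 9.82 with IFNβ. The 5 highest groups overlapped in turn, from WT LPS+zVAD+Nec-1 (12.9 log2, mean of 2) to WT IFNβ+zVAD (12.56). Its partner subunit gene Ebi3 (chr17:56096309-56096368, mm9, plus strand) read 14.44 and 14.9 log2 in untreated WT cells, 16.35 and 17.38 with LPS, 14.47 and 14.69 with LPS+zVAD, and 15.41 and 16.28 with LPS+zVAD+Nec-1. Ebi3 in Ifnar1-/- cells read 14.02 and 13.92 log2 untreated, 16.19 and 15.96 with LPS, and 14.55 and 14.62 with LPS+zVAD. In both genotypes the LPS arrays stood above the untreated and the LPS+zVAD arrays without overlap.

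Osm (chr11:4140146-4140205, mm9, plus strand) read 7.08 and 8 log2 in untreated WT cells, 9.97 and 9.87 with LPS, 10.08 and 10.14 with IFNβ, and 7.97 and 9.44 with zVAD. It was higher still with LPS+zVAD (11.46 and 11.88 log2) and with IFNβ+zVAD (10.6 and 12.37), and read 10.16 and 10.45 with LPS+zVAD+Nec-1. Osm in Ifnar1-/- cells read 7.77 and 7.76 log2 untreated, 9.58 and 9.18 with LPS, 11.46 and 11.32 with LPS+zVAD, 9.08 and 8.68 with LPS+zVAD+Nec-1, and 7.58 and 7.87 with IFNβ. The 3 highest groups, WT LPS+zVAD, WT IFNβ+zVAD and Ifnar1-/- LPS+zVAD, overlapped in turn.

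Lif (chr11:4172032-4172091, mm9, plus strand) was the dimmest of the 10, from 2.32 to 5.75 log2, above background on 9 of 16 WT and 6 of 16 Ifnar1-/- arrays. Both arrays were above background in untreated, LPS, zVAD and LPS+zVAD WT cells and in LPS and LPS+zVAD Ifnar1-/- cells. The highest group mean was that of Ifnar1-/- LPS+zVAD, with 5.61 and 5.71 log2, against 3.34 and 2.73 with Nec-1 added, where no array was above background. That difference was 2.51-fold when each dim array was given the higher of its own Lif signal and its lowest signal above background from any probe. This is not a strict lower bound. On replicate 1 Lif at 3.34 log2 was not above background, though another probe at 2.5 log2 was. The value used for replicate 2, 5.32 log2, comes from the array that stood apart. In a fit without the filter on dim probes, over 24081 genes, the limma adjusted p for the difference with Nec-1 was 0.00375. That for Ifnar1-/- LPS+zVAD against untreated was 0.0405, with a difference of 1.61 log2. The first of these includes the array that stood apart, and without it the difference was -2.32 log2 over 23987 genes (adjusted p = 0.0418), an alternative chosen after seeing the data.

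**Figure D2:**
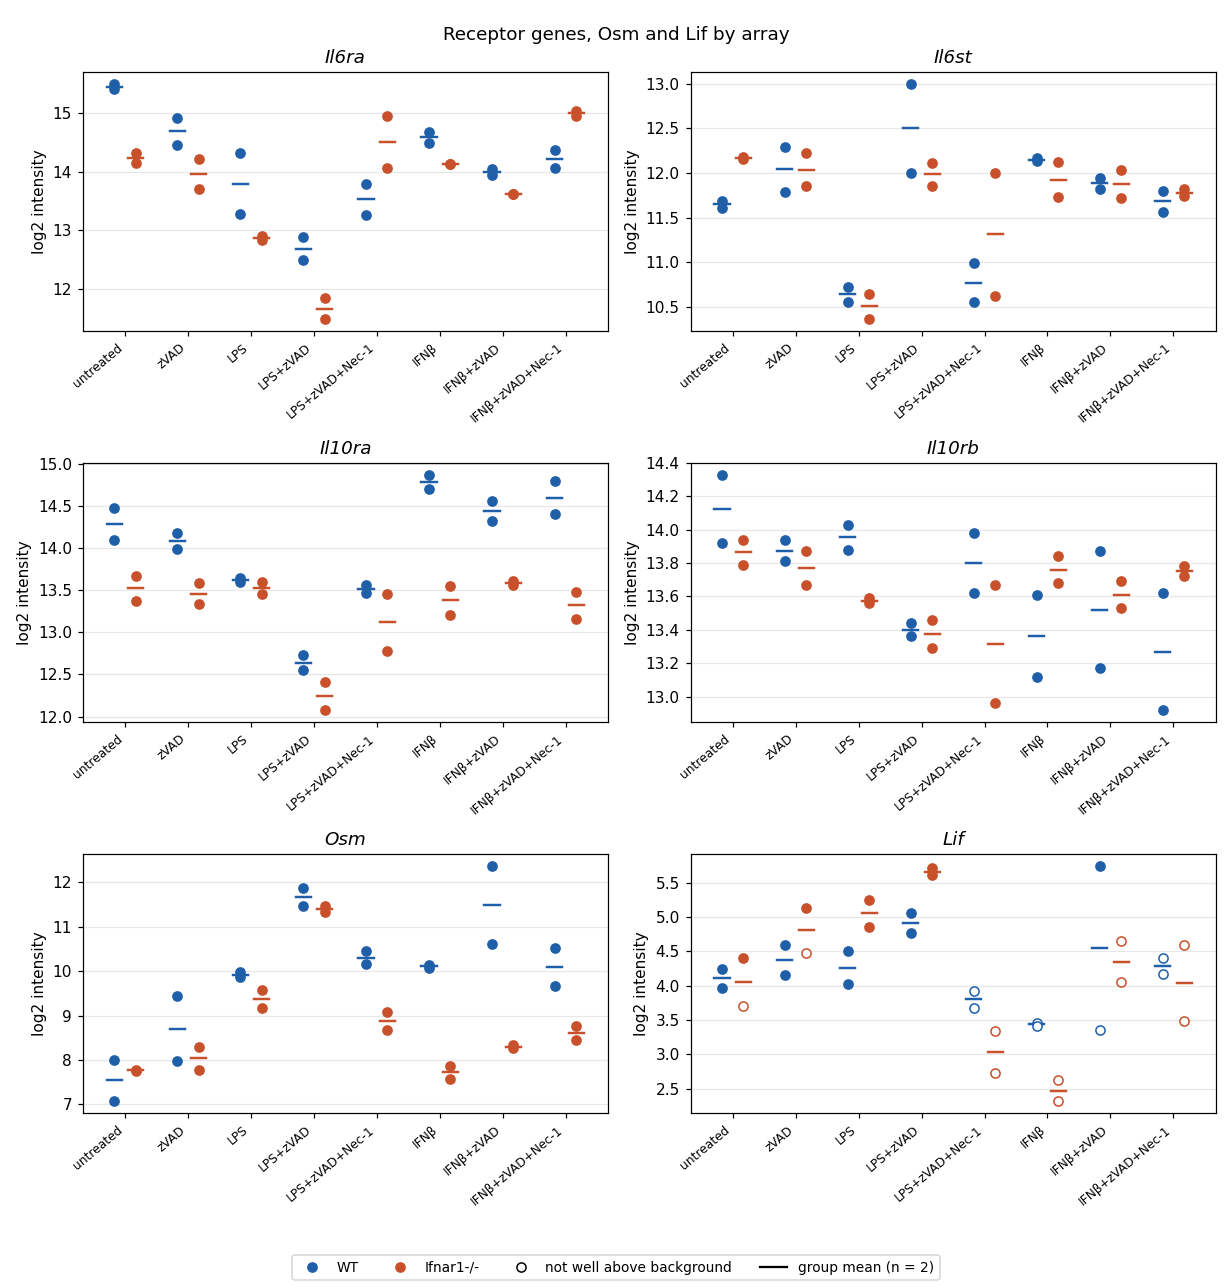
Log2 intensity of the receptor genes Il6ra, Il6st, Il10ra and Il10rb and of Osm and Lif (vertical axes) on each array of the 8 treatments (horizontal axes), WT in blue and Ifnar1-/- in orange, with bars at the mean of 2 arrays and open circles where the probe was not well above background. Il6ra and Il10ra are lowest with LPS+zVAD in both genotypes, while Il6st is lowest with LPS.

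Among the receptor chains, Il6ra (chr3:89674054-89674113, mm9, minus strand) read 15.41 and 15.51 log2 in untreated WT cells, 13.28 and 14.32 with LPS, and 12.89 and 12.49 with LPS+zVAD. The Ifnar1-/- arrays read 14.32 and 14.15 log2, 12.83 and 12.9, and 11.49 and 11.84 in the same order. Untreated WT stood first of the 16 groups without overlap and Ifnar1-/- LPS+zVAD last without overlap. Il6st, the gp130 gene (chr13:113296586-113296645, mm9, plus strand), read 11.61 and 11.69 log2 in untreated WT cells, 10.73 and 10.56 with LPS, and 12 and 13 with LPS+zVAD. The Ifnar1-/- arrays read 12.16 and 12.18, 10.37 and 10.65, and 11.86 and 12.11 log2. The LPS arrays were below the untreated and LPS+zVAD arrays in both genotypes.

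Il10ra (chr9:45062237-45062296, mm9, minus strand) read 14.1 and 14.47 log2 in untreated WT cells, 13.65 and 13.6 with LPS, 14.87 and 14.7 with IFNβ, and 12.73 and 12.55 with LPS+zVAD. The Ifnar1-/- arrays read 13.37 and 13.67 log2 untreated, 13.46 and 13.6 with LPS, and 12.08 and 12.41 with LPS+zVAD, the lowest group of the 16. Il10rb (chr16:91425744-91425803, mm9, plus strand) lay between 12.92 and 14.33 log2 on all arrays, and only 1 of the 15 steps in the order of its group means was without overlap.

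LPS raised 5 of the 9 tested genes in WT BMDMs and lowered 3. Il6 rose by 12.85 log2 (SE 1.6, adjusted p = 5.56e-06, limma), Il10 by 5.19 (SE 0.75, adjusted p = 2.5e-05), Il27 by 2.83, Osm by 2.38 and Ebi3 by 2.2. These were folds of 36.4 for Il10, 7.1 for Il27, 5.21 for Osm and 4.6 for Ebi3. Il6ra fell by 1.66 log2 (adjusted p = 0.000271), Il6st by 1.01 (adjusted p = 0.0237) and Il10ra by 0.66 (adjusted p = 0.0213), while Il10rb differed by -0.17 log2 (95% interval -0.72 to 0.39) and was not called. Of all genes 41.2% were called, 16.3% higher and 24.9% lower. Within the slides the Il6 difference was 13.68 and 12.02 log2 and the Il10 difference 6.05 and 4.32.

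The size of the Il6 rise depended on the background correction, since untreated cells were near background, and it ranged from 9.87 to 13.6 log2 over 13 alternatives, all of them called. The SE of 1.6 log2 became 0.48 without the array that stood apart. When arrays were only shifted to equal 75th percentiles, without quantile normalization, the Il10ra difference was -0.14 log2 (adjusted p = 0.76, range over alternatives 0.00218 to 0.76), the median of all genes moved from -0.08 to 0.08 log2, and 50.2% instead of 39.6% of the called genes were higher. The Il6st fall was called in 7 of 13 alternatives and lost its call without any 1 of the 4 arrays (-0.92 to -1.1 log2) and in the authors' normalized values (adjusted p = 0.261), and that of Il10ra was lost without WT untreated replicate 2 (-0.48 log2, adjusted p = 0.203) or either LPS array.

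In Ifnar1-/- BMDMs LPS raised Il6, Il27, Ebi3 and Osm and lowered Il6ra and Il6st, 6 of the 9 tested, where 24.8% of all genes were called, 10.9% higher and 13.9% lower. Il6 was at least 9370-fold higher than in untreated cells, where no array was above background (means 17.37 and 2.48 log2, adjusted p = 1.37e-05). Il27 rose by 2.39 log2 (SE 0.52, adjusted p = 0.00259), Ebi3 by 2.11 (SE 0.44, adjusted p = 0.0018) and Osm by 1.62 (SE 0.47, adjusted p = 0.0165). Il6ra fell by 1.36 log2 (adjusted p = 0.00309, and 0.0521 with the 75th percentile shift, the highest of its 13 alternatives), and Il6st fell by 1.66 log2. The Osm rise was not called without LPS replicate 1 or either untreated array (adjusted p up to 0.122). The Il10 difference was 1.65 log2 (SE 0.75, adjusted p = 0.123, 1.56 and 1.74 within the slides), and it passed the threshold in 1 of 13 alternatives, with adjusted p from 0.00613 to 0.347.

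**Figure D3:**
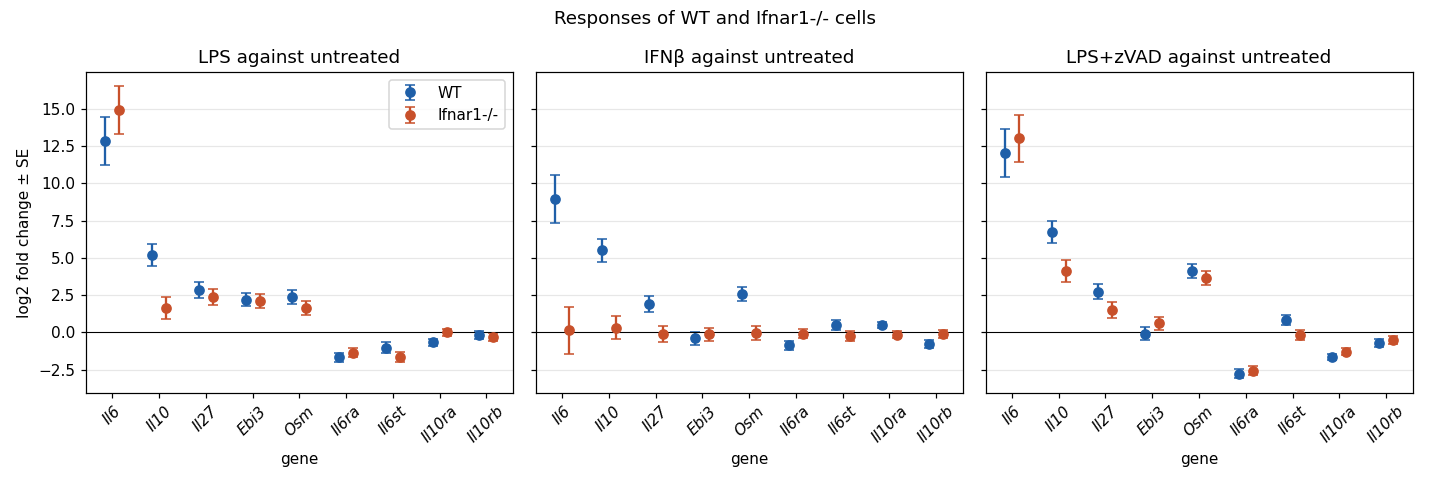
Log2 fold change with its standard error (vertical axis) of the 9 tested genes (horizontal axis) for LPS, IFNβ and LPS+zVAD against untreated cells, WT in blue and Ifnar1-/- in orange, from a fit of 2 arrays in each of 16 groups. With IFNβ the Ifnar1-/- values lie between -0.25 and 0.32 log2, while WT Il6 is at 8.93 and WT Il10 at 5.5, and Ifnar1-/- Il6 was not above background untreated or with IFNβ.

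Leaving Il6 aside, the difference between the genotypes' LPS responses was largest for Il10, though it was not called. The Ifnar1-/- response minus the WT response was -3.54 log2 for Il10 (SE 1.06, adjusted p = 0.0519), and 0 of the 9 genes were called, against 6.64% of all genes. Without the array that stood apart the Il10 difference had an adjusted p of 0.0132, and with the slide as a block 0.0301, within a range of 0.0132 to 0.239 over 17 alternatives, of which 9 called it, among them the fit without WT LPS replicate 2. The difference was -0.44 log2 for Il27 (95% interval -1.99 to 1.11) and -0.09 for Ebi3 (-1.4 to 1.22), and neither was called. For Il6 no size is given, because untreated Ifnar1-/- cells were not above background. In LPS-treated cells themselves Il10 was lower in Ifnar1-/- than in WT BMDMs, with a difference of -3.94 log2 (adjusted p = 0.0006) that was called in all 13 alternatives. Il6ra differed by -0.93 log2 (adjusted p = 0.029, range 0.00444 to 0.374). These 2 of 9 stood beside 28.4% of all genes, of which 64.5% were higher in Ifnar1-/- cells (54.1% with the 75th percentile shift), and the count was 1 without WT LPS replicate 2 or either Ifnar1-/- LPS array.

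IFNβ alone raised Il6, Il10, Il27 and Osm in WT BMDMs. Il6 rose by 8.93 log2 (SE 1.6, adjusted p = 0.000255, 9.28 and 8.59 within the slides), Il10 by 5.5 (SE 0.75, adjusted p = 1.51e-05, 6.52 and 4.48), Osm by 2.57 (adjusted p = 0.000327) and Il27 by 1.91 (adjusted p = 0.00797). Il6ra fell by 0.87 log2 (adjusted p = 0.0342) and Il10rb by 0.75 (adjusted p = 0.0332), which made 6 of 9 genes called, where 35.3% of all genes were called, 13.7% higher and 21.6% lower. The IL-27 partner gene Ebi3 differed by -0.39 log2 (95% interval -1.31 to 0.54) and was not called. Neither fall was called with the 75th percentile shift (-0.32 log2 for Il6ra, adjusted p = 0.601, and -0.35 for Il10rb, adjusted p = 0.557), where 50.1% instead of 38.8% of called genes were higher. Il10ra, at 0.5 log2 (adjusted p = 0.0892), was called with the slide as a block (0.0167) and without the array that stood apart (0.0477), within a range of 0.00874 to 0.433. The Il6ra fall was also lost without any 1 of the 4 arrays, that of Il10rb without IFNβ replicate 1 or untreated replicate 2, and the Il27 rise without untreated replicate 2 (1.71 log2, adjusted p = 0.0668). Without WT untreated replicate 2 the count was 3 of 9, and without the array that stood apart it was 7.

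In Ifnar1-/- BMDMs IFNβ changed none of the 9 genes, with limma calling 0 of 16036 (0% of all genes), and 253 genes at an unadjusted p under 0.05 with 0 of the 9 among them. The Il10 difference was 0.32 log2 (95% interval -1.25 to 1.89) and the Osm difference -0.04 (-1.03 to 0.95). The difference between the genotypes' responses to IFNβ was -8.8 log2 for Il6 (SE 2.26, adjusted p = 0.0105), -5.17 for Il10 (SE 1.06, adjusted p = 0.00202) and -2.61 for Osm (SE 0.67, adjusted p = 0.0101). No Ifnar1-/- array of either group was above background for Il6, so its value sets the WT rise against signals at background and its size is not a measured one. These 3 of 9 were called, against 18.8% of all genes, of which 54.6% were positive (40.9% with the 75th percentile shift). For Il27 it was -2 log2 (adjusted p = 0.0671), called with the slide as a block (adjusted p = 0.00391) and without the array that stood apart (0.0465), within a range of 0.00391 to 0.269. The block brought the count to 5 of 9 with Il27 and Il10ra (-0.64 log2, adjusted p = 0.0399), where 5421 of all genes were called instead of 3014.

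zVAD alone changed 0 of the 9 genes in WT cells (0.00624% of all genes called, 901 genes and 2 of the 9 at an unadjusted p under 0.05) and 0 in Ifnar1-/- cells (0% called, 61 genes unadjusted and 0 of the 9). The WT Il6 difference was 2.51 log2 with an SE of 1.6 and an adjusted p of 1. Without the array that stood apart its SE was 0.48 and its adjusted p 0.0392, the lowest of its 13 alternatives, which ranged up to 1.

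LPS+zVAD against untreated cells called 8 of 9 genes in WT (50.9% of all genes) and 6 of 9 in Ifnar1-/- BMDMs (28.2%). In WT cells Il10 rose by 6.72 log2 (adjusted p = 6.06e-07) and Osm by 4.13 (adjusted p = 8.07e-07), and Ebi3 differed by -0.09 log2 (95% interval -1.01 to 0.84). Il6st rose by 0.84 log2 there (adjusted p = 0.047), called in 7 of 13 alternatives, and without WT LPS+zVAD replicate 2 it differed by 0.34 log2 (adjusted p = 0.493). The median of all genes moved from -0.15 to 0.12 log2 with the 75th percentile shift. Ifnar1-/- Il10 rose by 4.1 log2 (SE 0.75, adjusted p = 0.000579), Osm by 3.63 and Il27 by 1.5 (not called without untreated replicate 2 or either LPS+zVAD array, adjusted p up to 0.282), and Il6 was at least 2550-fold higher (adjusted p = 2.14e-05). Il10rb, which differed by -0.49 log2 there (adjusted p = 0.189), was called with the slide as a block (adjusted p = 0.0326, range 0.0326 to 0.752). The Ifnar1-/- response minus the WT response was -2.62 log2 for Il10 (adjusted p = 0.105), and 0 of the 9 genes were called, against 16.1% of all genes. Without the array that stood apart the adjusted p for Il10 was 0.0388 (range over alternatives 0.0111 to 0.261). Il6st differed by -1.03 log2 (adjusted p = 0.169), and it alone was called once WT LPS+zVAD replicate 1 was left out (-1.53 log2, adjusted p = 0.0376). In the LPS+zVAD cells themselves Il10 differed by -3.02 log2 (adjusted p = 0.00356) and Il6ra by -1.03 (adjusted p = 0.0125) between Ifnar1-/- and WT, 2 of 9 genes against 37.4% of all, of which 68.7% were higher in Ifnar1-/- cells (56.5% with the 75th percentile shift). Il6ra lost its call when replicate 1 of LPS+zVAD was left out in either genotype (-0.85 log2 without the Ifnar1-/- array, adjusted p = 0.101, and -0.83 without the WT array, adjusted p = 0.107), and without the WT array Il6st was called (-1.01 log2, adjusted p = 0.0486).

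Adding zVAD to LPS changed the same 5 genes in the same directions in both genotypes. Il6st and Osm rose and Il6ra, Il10ra and Ebi3 fell, 5 of 9 in WT against 34.6% of all genes and 5 of 9 in Ifnar1-/- against 8.25%. In WT cells Il6st rose by 1.85 log2 (SE 0.34, adjusted p = 0.000342) and Osm by 1.75 (SE 0.47, adjusted p = 0.00695). Ebi3 fell by 2.29 log2 (SE 0.44, adjusted p = 0.000499), Il6ra by 1.11 (adjusted p = 0.00849) and Il10ra by 0.98 (adjusted p = 0.00175). Ifnar1-/- Il6st rose by 1.48 log2 (adjusted p = 0.0105) and Osm by 2.01 (adjusted p = 0.0116), and Ebi3 fell by 1.5 (adjusted p = 0.0421), Il6ra by 1.21 (adjusted p = 0.0191) and Il10ra by 1.29 (adjusted p = 0.00113). The Ifnar1-/- rise of Osm lost its call when any array of either group was left out (1.81 to 2.21 log2). That of Il6st lost it without LPS replicate 1 or either LPS+zVAD array (1.34 to 1.6 log2). The WT fall of Il6ra was not called without WT LPS replicate 2 (-0.59 log2, adjusted p = 0.229) or WT LPS+zVAD replicate 2 (-0.9, adjusted p = 0.0986), and the WT rise of Osm not without the latter (adjusted p = 0.0714). With the 75th percentile shift the Ifnar1-/- falls of Ebi3 and Il6ra were not called. The Ifnar1-/- fall of Ebi3 also lost its call when any array of either group was left out (-1.38 to -1.61 log2). That of Il6ra lost it without either LPS array or LPS+zVAD replicate 1 (-1.03 to -1.24 log2).

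Il6 and Il27 were not called when zVAD was added to LPS, at -0.82 and -0.08 log2 in WT and -1.88 and -0.89 log2 in Ifnar1-/- cells. Il10 differed by 1.53 log2 in WT (adjusted p = 0.129, 0.67 and 2.39 within the slides) and by 2.45 in Ifnar1-/- cells, where both slides gave similar values (2.59 and 2.31) and the adjusted p was 0.05 after rounding, above the threshold before it. With the slide as a block that p was 0.0298 and without the array that stood apart 0.0131, where Ifnar1-/- Il6 was also called (adjusted p = 0.0154), within ranges of 0.00947 to 0.24 for Il10 and 0.0128 to 0.844 for Il6. Without the block Il10rb was not called in WT cells (-0.56 log2, adjusted p = 0.116), and with it the adjusted p was 0.0143 (range 0.0143 to 0.362). The WT count was 2 of 9 in a fit of the 2 groups alone, where 1719 of all genes were called against 5548. In Ifnar1-/- cells that fit gave 8 of 9, where 2058 of all genes were called against 1323. The Ifnar1-/- count was lower when any array of either group was left out. The WT count was lower without replicate 2 of either group. Fewer genes in all were called in those fits too.

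Adding zVAD to IFNβ changed 0 of the 9 genes in either genotype, with limma calling 0% of all genes in WT (637 genes and 1 of the 9 at an unadjusted p under 0.05) and 0.00624% in Ifnar1-/- cells (370 genes unadjusted, 0 of the 9). Osm, 11.48 ± 1.25 log2 (SD, n = 2) with IFNβ+zVAD and 10.11 ± 0.04 with IFNβ in WT cells, had a difference of 1.38 log2 (adjusted p = 0.98). The Osm difference was called without WT IFNβ+zVAD replicate 1, the lower of the 2 arrays, which made the count 1 of 9.

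Adding Nec-1 to LPS+zVAD moved the 5 genes the other way in WT BMDMs. Il6ra rose by 0.84 log2 (adjusted p = 0.0485), Il10ra by 0.87 (adjusted p = 0.00559) and Ebi3 by 1.27 (adjusted p = 0.0374), and Il6st fell by 1.72 (SE 0.34, adjusted p = 0.000868) and Osm by 1.37 (adjusted p = 0.036). This made 5 of 9 genes called where 28.5% of all genes were. The comparison shares its LPS+zVAD arrays with the comparison of LPS+zVAD and LPS, so the opposite signs are not independent. Il6 (0.7 log2), Il10 (-0.44) and Il27 (0.2) were not called. The count was 3 with the 75th percentile shift, where 4112 genes in all were called against 4564. It was 2 without the filter on dim probes (4142 genes in all) and 3 in the authors' normalized table (3542). In a fit of the 2 groups alone it was 0, where 0 of all genes were called. The Osm fall lost its call when any array of either group was left out (-1.15 to -1.58 log2). The Ebi3 rise lost it without either LPS+zVAD array or LPS+zVAD+Nec-1 replicate 2 (0.83 to 1.37 log2). The Il6ra rise lost it without replicate 2 of either group (0.63 and 0.58), and the Il10ra rise without LPS+zVAD replicate 2 (0.78).

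In Ifnar1-/- cells the comparison of LPS+zVAD+Nec-1 with LPS+zVAD rests on the group with the array that stood apart. With both arrays 6 of 9 genes were called, against 18.8% of all genes, among them Il6 (-5.89 log2, adjusted p = 0.0157), Il10 (-3.49, adjusted p = 0.00368), Osm (-2.51, adjusted p = 0.00148) and Il6ra (2.85, adjusted p = 1.43e-05). Il10ra (0.88 log2, adjusted p = 0.0101) and Il27 (-1.62, adjusted p = 0.037) were also called, and without replicate 2 they differed by 0.54 and -1 log2. Of all called genes 59.3% were higher (42.3% with the 75th percentile shift). Without replicate 2 the count was 3 of 9. Il6ra was then 2.4 log2 higher (adjusted p = 0.000246), Osm differed by -2.31 (adjusted p = 0.0195) and Il6st by -1.36 (adjusted p = 0.0134). Il6 differed by -1.23 log2 without it (adjusted p = 0.223) and Il10 by -2.08 (adjusted p = 0.0928), against within-slide values of -1.08 and -10.7 for Il6 and -2.03 and -4.94 for Il10. In a fit of the 2 groups alone 0 of 9 were called, where 0 of all genes were. Without LPS+zVAD replicate 1 the calls of Il6 (-6.04 log2), Il10ra (0.71) and Il27 (-1.46) were lost.

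Adding Nec-1 to IFNβ+zVAD changed 0 of 9 genes in WT cells (0% of all genes called by limma, 613 genes and 1 of the 9 at an unadjusted p under 0.05). In Ifnar1-/- cells it changed 1 of 9, against 1.58% of all genes. Il6ra was 13.63 and 13.63 log2 with IFNβ+zVAD and 15.05 and 14.95 with Nec-1 added, a rise of 1.37 log2 (SE 0.31, adjusted p = 0.0252). It was not called with the 75th percentile shift, in a fit of the 2 groups alone or without any 1 of the 4 arrays, within a range of 0.00711 to 0.207.

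In untreated cells Il6ra was lower in Ifnar1-/- than in WT BMDMs, with a difference of -1.23 log2 (SE 0.31, adjusted p = 0.0158) and Il10ra by -0.77 (SE 0.22, adjusted p = 0.0349), 2 of 9 genes against 8.73% of all. The cytokine genes were not called, with differences of -0.4 log2 for Il10, 0.51 for Il27 and 0.23 for Osm. Il6 was not above background on either Ifnar1-/- array, so no difference is given for it. The count was 1 with the 75th percentile shift, without the dim-probe filter or without WT untreated replicate 1, and 0 without any 1 of the other 3 arrays. Genotype and slide cannot be told apart.

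**Figure D4:**
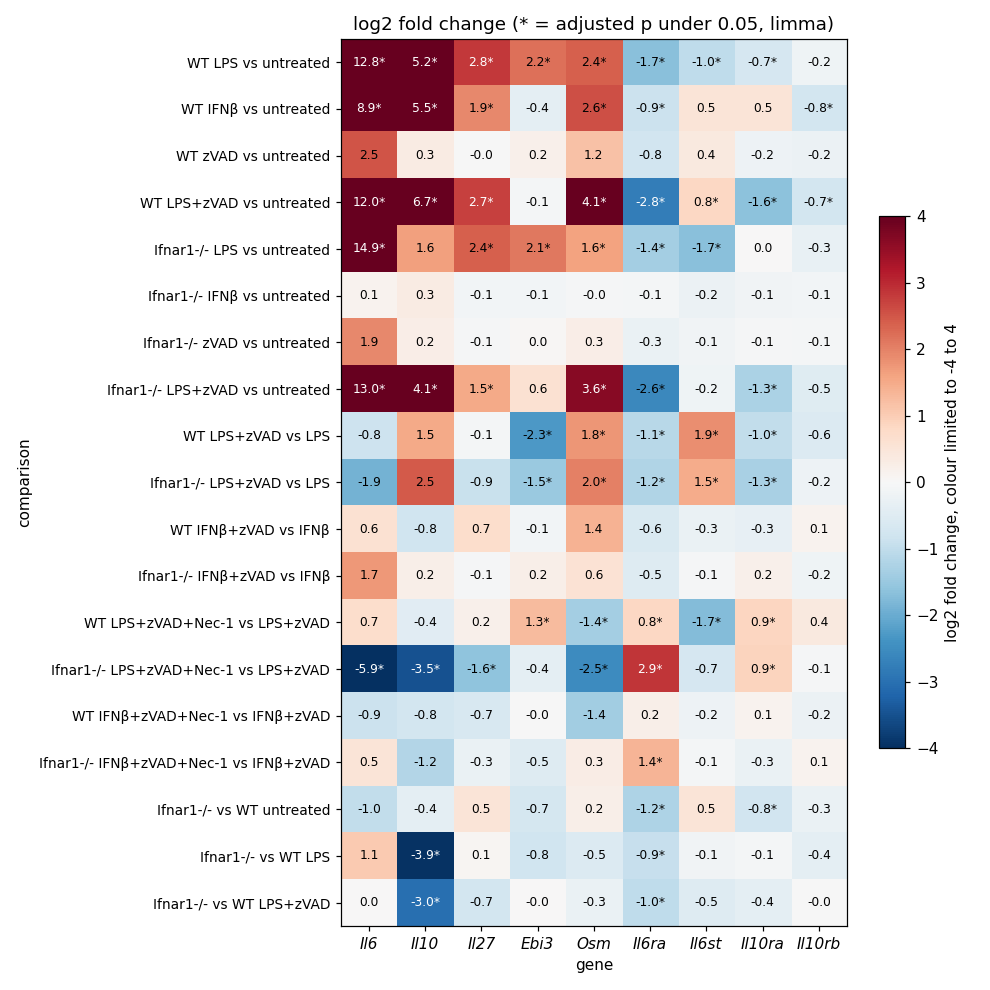
Log2 fold change of the 9 tested genes (columns) in 19 comparisons (rows), from limma over 32 arrays, with an asterisk at an adjusted p under 0.05 and the colour limited to -4 to 4. The rows for adding zVAD to LPS and for adding Nec-1 to LPS+zVAD in WT cells carry opposite signs for Il6ra, Il6st, Il10ra, Ebi3 and Osm.

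Other genes of these pathways were taken from a list of 31 ligands, receptors and signalling genes, of which 24 were tested. Among the 7 that were too dim, Osmr, the specific OSM receptor chain, was above background on 11 of 32 arrays, and Il12a, Il12b and Il23a on 11, 15 and 10. In WT cells LPS raised 12 of the 24 and lowered 2, with a median difference of 0.98 log2 against -0.08 over all genes, of which 16.3% were called higher and 24.9% lower. All 8 signalling genes that were called of 10 tested were higher, among them Socs3, which limits gp130 signalling (6.77 log2, adjusted p = 0.000439), Socs1 (5.09, adjusted p = 5.83e-05) and the kinase gene Jak2 (3.49, adjusted p = 8.68e-07). Il19, an IL-10 family ligand, rose by 6.82 log2 (adjusted p = 5.02e-10). IFNβ in WT cells raised 13 of the 24 and lowered 1 (median 1.19 log2 against -0.17 over all genes, with 13.7% called higher and 21.6% lower), among them Il12rb1 (6.95 log2, adjusted p = 1.29e-09), Socs1 (6.44) and Socs3 (3.54).

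In Ifnar1-/- cells LPS raised 7 of the 24 and lowered 0, with a median of 0.34 log2 against -0.06 and 10.9% of all genes called higher and 13.9% lower, and Socs3 rose by 8.82 log2 (adjusted p = 0.000151), Socs1 by 6.51, Jak2 by 3.4 and Bcl3 by 2.1. The Ifnar1-/- LPS response minus that of WT was called for 2 of the 24, where 6.64% of all genes were, namely Il19 (-5.47 log2, adjusted p = 6.19e-06) and Stat3 (-1.3, adjusted p = 0.0421). For IFNβ it was called lower for 8 and higher for 1, where 18.8% of all genes were called, among them Il12rb1 (-7.17 log2), Socs1 (-6.58) and Jak2 (-2.63). Adding zVAD to LPS raised 2 of the 24 and lowered 6 in WT cells, where 12.9% of all genes were called higher and 21.7% lower. It raised 2 and lowered 1 in Ifnar1-/- cells, where 4.58% were called higher and 3.67% lower. The genes named there by the size of the difference were Il19 (-2.68 log2), Il21r (-2.29), Cntf (2.05) and Tyk2 (-1.73) in WT, and Jak2 (-1.22), Nfil3 (1.11) and Il11ra1 (1.06) in Ifnar1-/- cells.

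Over the 16 group means, the pattern of Il6 was most like that of Il27 among the tested members (Pearson r = 0.93), and that of Il10 was about equally like Il27 and Osm (0.87 each). Il6st and Ebi3 ran in opposite directions (r = -0.78). Among the other tested genes, those most like Il6 were Ext1 (r = 0.985), Cst7 (0.98) and Cers6 (0.977). Those most like Il10 were Slamf7 (0.985), Gm7160 (0.983) and the chemokine gene Ccl7 (0.977), and those most like Il27 were Acot9 (0.962), Farsa (0.962) and AA467197 (0.958). These 16 means come from the same arrays for every gene and include the group with the array that stood apart, and they fall into stimulated and unstimulated groups, so the values describe likeness of pattern only.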

How the data were processed

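Gene expression was measured in 32 samples on 1-colour Agilent arrays carrying 55681 mouse probes. The authors deposited scanner output of Feature Extraction 11.5.1.1 with background-subtracted intensity per spot, and a table of normalized log2 values, for which the labels list limma and which was used as an alternative. Null entries made up 32.5% to 38.7% of its values per array (the study's methods describe quantile normalization after background subtraction, with dim probes removed). Its values correlated at 0.983 to 0.995 with those used here.

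Intensities were taken to log2 without outlier spots (130 to 499 per array), averaged per probe and quantile-normalized. Probes well above background on at least 50% of arrays were kept (21465 of 33140 with a symbol), and the brightest per symbol was fitted with limma 3.58.1 (R 4.3.3), 16 group means and 16 residual degrees of freedom. The number of arrays limits the precision. The fit was tested on simulated data. The genes, the pathway list and the tests were chosen with earlier results of these data known. All 10 genes, at most 4 called pathway genes per comparison and the 3 genes most like Il6, Il10 and Il27 are named. The values of 1 pathway gene are not reported here.

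Same-numbered arrays of 1 genotype shared a slide, and their deviations correlated (0.32 to 0.67 over 28 pairs of WT groups, 0.17 to 0.57 over 28 pairs of Ifnar1-/- groups), so the slide was tried as a block. Between genotypes the correlation was 0 to 0.33, and for genotypes compared within a treatment the replicate number was the block. Probe positions are those of the files (mm9); exon or UTR annotation of that build was not used here.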

Additional observations from a re-analysis of the deposited data

Results flagged for a closer look

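The responses to IFNβ of the 2 genotypes differed for 3 of the 9 tested genes, where 18.8% of all genes were called. The Ifnar1-/- response minus the WT response was -8.8 log2 for Il6, -5.17 log2 for Il10 and -2.61 log2 for Osm, each called by limma's test of the difference itself (adjusted p = 0.0105, 0.00202 and 0.0101). The WT response was positive within both slides for each of the 3 genes, while the Ifnar1-/- values within the slides were 0.32 and 0.32 log2 for Il10 and -0.19 and 0.1 for Osm. For Il6 no untreated or IFNβ-treated Ifnar1-/- array was above background, so the size of its difference rests on signals at background. Il6 and Il10 were called in all 17 alternatives. Osm was called in 16 of 17, the exception being the fit without WT untreated replicate 1 (adjusted p = 0.059, range 0.000625 to 0.059).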

How the results depend on the processing

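Of 198 values (9 genes in 22 comparisons), 65 were called, and all 851 of their alternatives kept the sign. Of these alternatives 717 stayed called, and 30 values were called under every one, while 53 alternatives called a value that was not called before. The 75th percentile shift lost 13 of the 65 calls, the fit without the filter on dim probes 10, the authors' normalized values 6, normexp background correction 0 and the fits of only the groups compared 21; the cause was not tested, though the last have fewer samples. The replicate block was the slide for comparisons within a genotype and for differences between responses. For genotypes compared within a treatment it was the replicate number, which does not adjust for the slide. This block lost 0 calls, gained 7 and changed no other call.

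The number of all genes called also differed between settings, and that of the 9 genes moved as follows. With the 75th percentile shift it went from 5 to 3 for Nec-1 added to LPS+zVAD in WT, from 1 to 0 for Nec-1 added to IFNβ+zVAD in Ifnar1-/- cells, from 0 to 1 for the difference in LPS response and from 2 to 1 between untreated genotypes. Without the filter it was 2 and 1 for the first and last of these, and in the authors' normalized values 3 for the first and 1 for the difference in LPS response. Fits of only the groups compared gave 2 for zVAD added to LPS in WT and 8 in Ifnar1-/- cells, 0 for Nec-1 added to LPS+zVAD in each genotype, 0 for Nec-1 added to IFNβ+zVAD in Ifnar1-/- cells, 1 for the differences in the LPS and LPS+zVAD responses and 1 between LPS-treated genotypes. Normexp gave 1 for those 2 differences in response. Of all genes, the fits of only the groups compared called 1719 for zVAD added to LPS in WT and 2058 in Ifnar1-/- cells. In the Nec-1 comparisons named with them they called 0 of all genes. With the replicate block or the slide as a random block the count was 1 for the difference in LPS response and 5 for that in IFNβ response, and with the random block 1 between LPS-treated genotypes. Without the array that stood apart, or without both arrays of its group, an alternative chosen in the first case after seeing the data, the count was 1 for zVAD in WT and 1 for the differences in the LPS and LPS+zVAD responses, and without that array 3 for Nec-1 added to LPS+zVAD in Ifnar1-/- cells.

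Leaving out 1 array at a time gave 3 to 5 for IFNβ in WT, 3 to 5 for zVAD added to LPS in WT and 1 to 2 in Ifnar1-/- cells, 0 to 1 for zVAD added to IFNβ in WT, 1 to 4 for Nec-1 added to LPS+zVAD in WT and 3 to 6 in Ifnar1-/- cells, and 0 for Nec-1 added to IFNβ+zVAD in Ifnar1-/- cells. It gave 0 to 1 for the differences in the LPS and LPS+zVAD responses and between untreated genotypes, and 1 to 2 between genotypes with LPS and with LPS+zVAD. The array left alone was then assumed to vary like the other groups. In these fits the number of all genes called moved as well. A second probe could not be tried, since each gene had 1. Signal near background limits the size of the Il6 changes and Lif was tested only without the filter on dim probes.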
